A study of Homo sapiens with 6 samples.

Results

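KMS-11, a human multiple myeloma cell line, was treated with the BET inhibitor JQ1 and compared with the same line in DMSO by ATAC-seq, an assay that reads open chromatin from the places where a transposase can cut and tag the DNA. The comparison was chosen by cell line: 2 of the 6 ATAC-seq libraries of the study are from KMS-11, 1 with JQ1 and 1 with DMSO, and every region of the authors' deposited table carries a value for it, 2972 of them at or below -0.5 on the log2 scale and 866 above. KMS-11 JQ1 cells were wild type by their label and received 1 µM JQ1 for 72 h. KMS-11 DMSO cells, also wild type, received the solvent diluted to the same volume. The other libraries, used below only as a reference, are JQ1 at the same dose and time against DMSO in the myeloma lines KMS-12 and RPMI8226, both labelled wild type. The labels list 1 ATAC-seq library for each line and treatment, whereas the design text of the study speaks of duplicates, of RNA-seq and of a line KMS-111.

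BET proteins bind acetylated histones through paired bromodomains and help to recruit the machinery of transcription elongation to enhancers and promoters. JQ1 occupies the acetyl-lysine pocket of these bromodomains and so displaces the proteins from chromatin. Myeloma cells are malignant plasma cells, and many of their driver genes, MYC and IRF4 among them, are known to depend on enhancers loaded with BET proteins. KMS-11 carries translocations that bring NSD2 with FGFR3, and MAF, next to the immunoglobulin heavy chain locus.

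Each region has a single log fold change for KMS-11, here called its fold, which is read as log2 of JQ1 over DMSO because the header states neither base nor direction. A fold of -1 then stands for an accessibility ratio of 0.5. No read counts came with the table, so the depth behind a fold is unknown, and 1 library on each side gives no replicate error and allows no test between JQ1 and DMSO. In bulk cells, fewer cells with a region open and a smaller opening in each cell cannot be told apart. A region is in the table where at least 2 of the 3 lines have a fold at or below -0.5, and no fold is above 0 in any line. The table therefore holds shared losses only, and a region with a KMS-11 fold above -0.5 has both other lines at or below -0.5 by construction. It gives changes and no levels, so the cell type on the label could not be checked against the accessibility of plasma cell genes.

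Promoters with low KMS-11 folds and with folds near 0 are shown here as examples of sequence. The 250 bases before the annotated start are printed 5′ to 3′ on the gene's strand for 3 promoters with low folds (LOC124904677, TRD-AS1 and GPR171) and for 3 with folds near 0 (MID1, VAT1L and GSC), picked among the named promoters after their values were seen. Capitals mark bases inside the accessible region. Sequences and their coordinates are from RefSeq on GRCh38.p14. LOC124904677 is an uncharacterised noncoding gene whose promoter region lies in RPSA2 (chr19:23824065-23824314, minus strand), TRD-AS1 is an antisense transcript of the T cell receptor delta locus (chr14:22432754-22433003, minus strand), and GPR171 encodes a G protein-coupled receptor of lymphocytes (chr3:151203217-151203466, minus strand). MID1 encodes a microtubule-associated ubiquitin ligase (chrX:10620586-10620835, minus strand), VAT1L a vesicle amine transport protein homologue (chr16:77788314-77788563, plus strand), and GSC the homeobox factor goosecoid (chr14:94770114-94770363, minus strand).
LOC124904677: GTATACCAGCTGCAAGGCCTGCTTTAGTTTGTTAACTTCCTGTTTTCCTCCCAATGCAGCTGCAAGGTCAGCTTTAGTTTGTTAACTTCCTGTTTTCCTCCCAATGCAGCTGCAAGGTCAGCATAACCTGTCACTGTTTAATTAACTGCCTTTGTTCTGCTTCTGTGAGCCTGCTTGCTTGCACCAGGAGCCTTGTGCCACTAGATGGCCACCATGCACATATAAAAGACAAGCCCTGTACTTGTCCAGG
TRD-AS1: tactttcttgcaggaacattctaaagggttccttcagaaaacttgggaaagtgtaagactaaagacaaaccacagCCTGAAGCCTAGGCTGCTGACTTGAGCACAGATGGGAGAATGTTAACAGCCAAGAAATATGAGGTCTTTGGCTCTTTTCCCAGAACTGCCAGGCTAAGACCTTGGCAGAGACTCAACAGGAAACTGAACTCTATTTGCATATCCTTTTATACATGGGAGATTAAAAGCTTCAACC
GPR171: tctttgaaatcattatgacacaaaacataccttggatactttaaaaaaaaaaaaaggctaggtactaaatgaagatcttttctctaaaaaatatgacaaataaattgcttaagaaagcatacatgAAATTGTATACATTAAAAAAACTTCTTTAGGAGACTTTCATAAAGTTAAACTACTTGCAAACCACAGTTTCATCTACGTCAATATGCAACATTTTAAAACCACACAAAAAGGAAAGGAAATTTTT
MID1: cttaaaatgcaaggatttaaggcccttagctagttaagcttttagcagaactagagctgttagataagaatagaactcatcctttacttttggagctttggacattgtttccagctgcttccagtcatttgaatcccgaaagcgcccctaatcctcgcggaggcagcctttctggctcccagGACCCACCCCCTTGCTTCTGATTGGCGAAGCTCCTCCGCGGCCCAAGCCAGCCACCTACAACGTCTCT
VAT1L: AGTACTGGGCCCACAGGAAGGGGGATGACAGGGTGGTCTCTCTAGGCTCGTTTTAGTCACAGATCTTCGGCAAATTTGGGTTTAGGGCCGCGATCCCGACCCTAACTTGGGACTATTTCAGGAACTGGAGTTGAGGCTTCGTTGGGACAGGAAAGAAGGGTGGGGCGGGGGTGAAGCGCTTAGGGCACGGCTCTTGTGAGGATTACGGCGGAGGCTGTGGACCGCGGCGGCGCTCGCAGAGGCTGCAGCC
GSC: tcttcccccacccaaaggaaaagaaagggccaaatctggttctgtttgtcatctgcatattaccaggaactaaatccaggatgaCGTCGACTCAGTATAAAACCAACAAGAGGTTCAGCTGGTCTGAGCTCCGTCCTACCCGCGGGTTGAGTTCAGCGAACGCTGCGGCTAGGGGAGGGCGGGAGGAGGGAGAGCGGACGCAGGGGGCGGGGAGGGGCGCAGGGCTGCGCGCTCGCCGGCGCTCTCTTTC

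These promoters differed in base composition as well as in fold. In the authors' deposited table the region over LOC124904677 had a fold of -2.73, that over TRD-AS1 -1.73 and that over GPR171 -1.47. The GC content of their promoter windows, counted over the printed bases and the 50 that follow, was 46.7%, 41.7% and 31%, in the same order. The regions over MID1, VAT1L and GSC had folds of -0.0029, -0.02 and -0.12. Their windows held 51%, 60% and 60.3% GC. The TRD-AS1 window holds the octamer ATGCAAAT, which POU factors such as POU2F1 bind, and the TATA letters TATAAA, both read on the other strand near the end of the printed run. LOC124904677 and GSC hold TATAAA on the gene's own strand, within the printed bases. The windows of GPR171, MID1 and VAT1L hold none of the 4 motifs searched, whose shares over all promoters are given with the promoter results. LOC124904212, a promoter that is not printed, had a KMS-11 fold of -0.14 and 33% GC. Its window holds the octamer, the E-box letters CACGTG and TATAAA, which start at bases 34, 57 and 118 of the window. Only 70 bases of that window, 20 of them before the start, lie inside the accessible region, and these motifs lie outside it. Low GC and the octamer were thus not confined to windows of promoters with low folds, though here the octamer lies outside the accessible region.

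The KMS-11 folds were moderate over most of the regions and strong over a minority. The median fold in the authors' deposited table was -0.71, a JQ1 to DMSO ratio of 0.609, with quartiles at -0.96 and -0.53 and a range of -3.04 to -0.0026. A fold of -1 or lower, called strong here, was found in 871 regions, 22.7% of the table, which is the background for every count of strong regions below. Only 181 regions had a fold of -1.5 or lower and 25 had -2 or lower. At the other end 866 regions, 22.6%, had a KMS-11 fold above -0.5, and 150 regions, 3.91%, lay above -0.1. The regions next to the -0.5 line differed by little, with HAGHL, ITGB4 and MARCHF1 just inside it at -0.5001 and SMIM2 and GATAD2B just outside at -0.4992 and -0.4989.

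Set against the other lines, the KMS-11 folds were of middling size. The KMS-11 median of -0.71 lay between -0.79 in KMS-12 and -0.61 in RPMI8226 in the authors' deposited table. Strong regions made up 22.7% in KMS-11, against 29.9% in KMS-12 and 16.4% in RPMI8226. The lowest 5% of KMS-11 folds began at -1.49, against -1.74 in KMS-12 and -1.32 in RPMI8226. KMS-11 had the lowest fold of the 3 lines in 1232 regions, 32.1%, and its median fold in those was -1.03. The scaling of each pair of libraries is not given in the sources used here, and its part in the order of the lines was not tested.

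**Figure D1:**
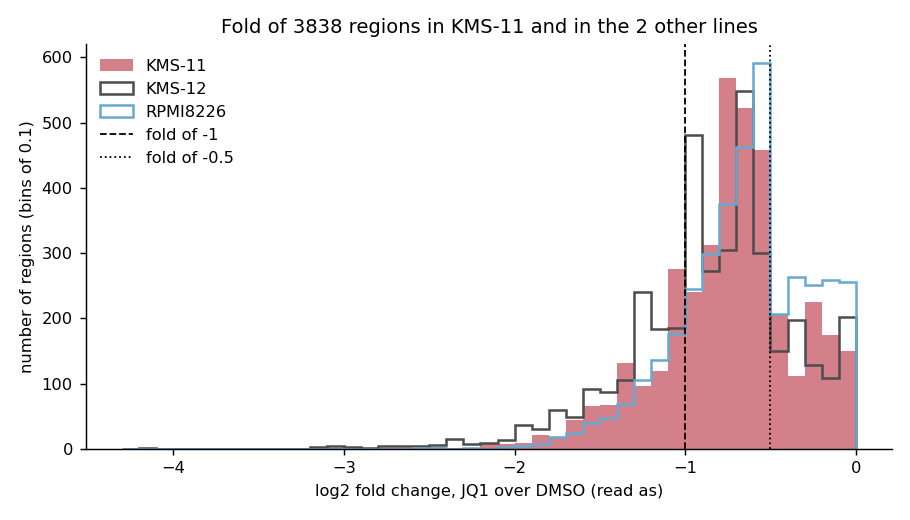
Number of regions (vertical axis, bins of 0.1) by log2 fold change of JQ1 over DMSO (horizontal axis) in KMS-11 (filled), KMS-12 and RPMI8226 (outlines), over the same regions. All folds lie below 0, the KMS-11 median is -0.71, and the step at -0.5 is the value at which a line counts as sharing a region.

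The lowest KMS-11 folds lay at genes of differing roles. The lowest of all, in the authors' deposited table, lay in the noncoding gene LINC02740 (chr11:42215956-42216229), with a fold of -3.04 in KMS-11, against -4.17 in KMS-12 and -0.03 in RPMI8226. The next was 4.49 kb from WASL-DT (chr7:123755472-123755723), the divergent transcript of an actin-nucleation regulator, at -2.81, against -0.37 in KMS-12 and -0.61 in RPMI8226. RPSA2 (chr19:23823958-23824359), a ribosomal protein SA family gene, had -2.73, against -1.55 in KMS-12 and -0.59 in RPMI8226. Thus the first was low in KMS-12 also, while the second was strong in KMS-11 alone.

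In 6 of the other 7 among the 10 lowest regions, again by the authors' deposited table, KMS-12 or RPMI8226 was strong too. The region 7.31 kb from RETNLB (chr3:108764724-108764978), which encodes a resistin-like protein of intestinal goblet cells, had a KMS-11 fold of -2.61, against -1.03 in KMS-12 and -0.26 in RPMI8226. AIMP2 (chr7:6015824-6016428), a scaffold of the multi-tRNA synthetase complex, had -2.46 in KMS-11, against -1.91 in KMS-12 and -1.10 in RPMI8226. COMMD1 (chr2:61978566-61978844), which acts in copper handling and in NF-kB turnover, had -2.45 in KMS-11, against -1.48 in KMS-12 and -1.21 in RPMI8226. AIMP2 and COMMD1 were strong in all 3 lines and lowest in KMS-11. The regions in MACC1-OT1 and in LPP, a LIM-domain protein of focal adhesions, had KMS-11 folds of -2.37 and -2.30. LINC01307 and RTN3, a reticulon of the endoplasmic reticulum, both had -2.18, a value that 5 regions share, with KMS-12 at -0.03 and RPMI8226 at -0.96 for LINC01307, and KMS-12 at -1.49999 and RPMI8226 at -0.69 for RTN3.

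Some regions were low in KMS-11 and near 0 in another line. Ranked by the KMS-11 fold minus the mean fold of the other lines, WASL-DT and RETNLB stood at -2.32 and -1.96 in the authors' deposited table, and LOC124904301 (chr18:50312366-50312605) came next at -1.87. That region had -2.15 in KMS-11, against -0.06 in KMS-12 and -0.50 in RPMI8226, while a second region only 2.94 kb away had -0.74 in KMS-11. CNIH3 (chr1:224747683-224747933, 7.13 kb from the gene), which encodes an AMPA receptor auxiliary subunit, had -2.16, against -0.68 in KMS-12 and -0.15 in RPMI8226. UAP1 (chr1:162571245-162571468), an enzyme that makes UDP-N-acetylglucosamine, had -1.95, against -0.04 in KMS-12 and -0.94 in RPMI8226. LRRC43 (chr12:122196718-122197797), at 1080 bp the widest of the 8 regions named by this ranking, had -1.83, against -0.35 in KMS-12 and -0.51 in RPMI8226. ST7 had -1.98, against -0.58 in KMS-12 and -0.34 in RPMI8226. Single values of this kind have no replicate, and these regions were ranked by the difference that is described.

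The opposite pattern, a KMS-11 fold near 0 beside low folds in the others, was led by KMS-12. In the authors' deposited table CACNA2D4 (chr12:1818586-1818956), an auxiliary subunit of voltage-gated calcium channels, had -0.09 in KMS-11, against -3.04 in KMS-12 and -1.32 in RPMI8226. RAB33B, a small GTPase of the Golgi, had a region 9.88 kb away at -0.20 in KMS-11, against -3.08 in KMS-12 and -0.996 in RPMI8226. CAPN2 (chr1:223707499-223707925), the catalytic subunit of a calpain protease, had -0.15 in KMS-11, against -1.92 in KMS-12 and -1.21 in RPMI8226. LOC105376637, ZNF738, SNX12, PHACTR4 and HMCN1 had KMS-11 folds of -0.23 to -0.02 and KMS-12 folds of -3.01 to -2.46. In all 8 regions KMS-12 had the lowest of the 3 folds. Over the whole table KMS-12 had 78 folds at or below -2, against 25 in KMS-11 and 5 in RPMI8226. The ranking favours the line with the most such values, and these regions were picked by the difference that is described. Repeated KMS-11 values were left in here, unlike in the ranking above. That of RAB33B occurs in 56 regions, that of CAPN2 and SNX12 in 61, and that of ZNF738 in 12.

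The regions nearest to no change were WDPCP (chr2:63424632-63425171), a planar cell polarity effector needed for cilia, at -0.0026 and MID1 (chrX:10619930-10620653) at -0.0029 in the authors' deposited table. WDPCP had -0.81 in KMS-12 and -0.60 in RPMI8226. MID1 had -1.27 in KMS-12 and -0.60 in RPMI8226. The next, at NCMAP-DT, HECTD2-AS1, SPON1 and PAN3, shared the value -0.01, which 31 regions carry.

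**Figure D2:**
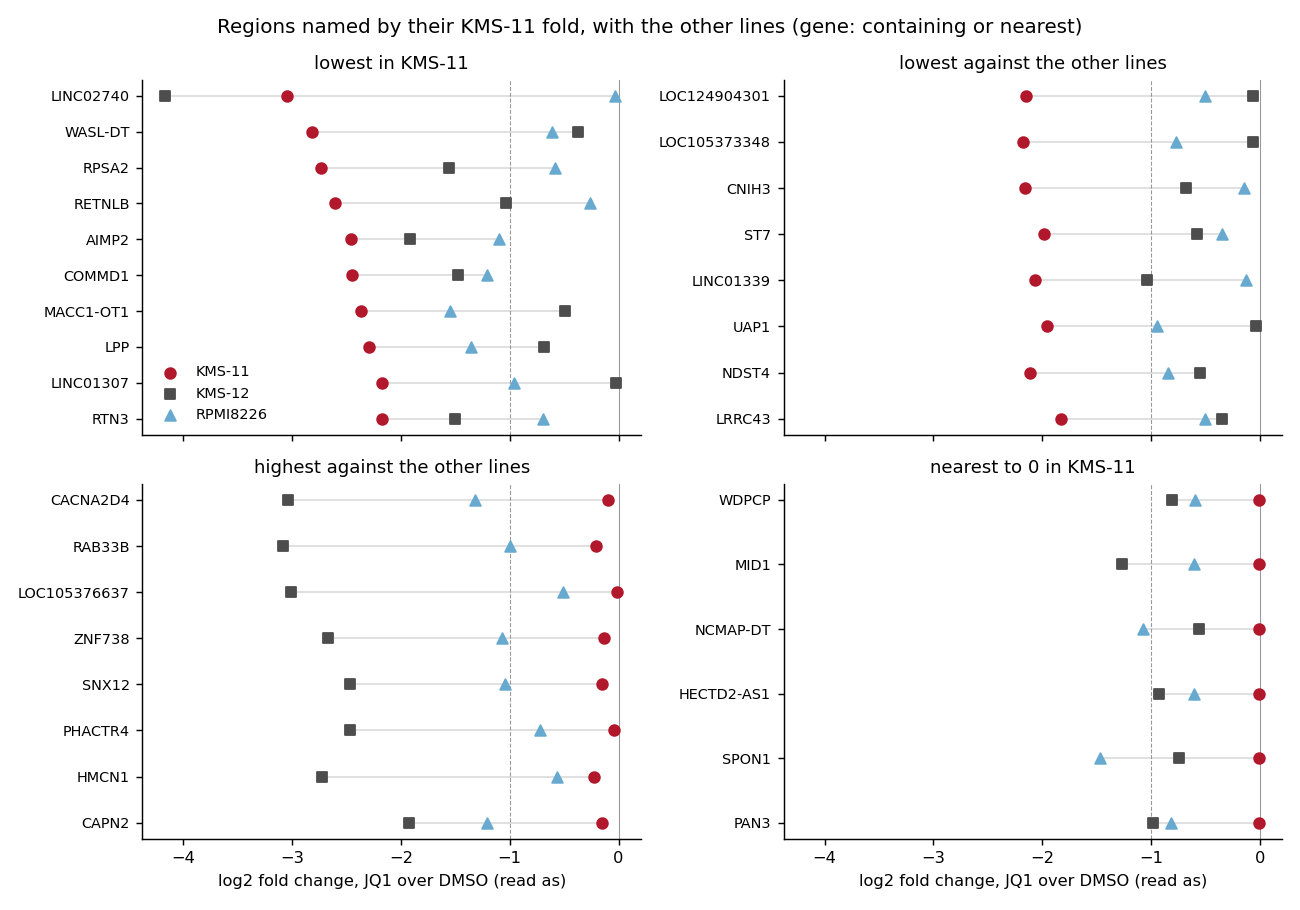
Log2 fold change (horizontal axes) of the regions named by rule, 1 row for each region with its containing or nearest gene, in KMS-11 (circles), KMS-12 (squares) and RPMI8226 (triangles); the dashed line is a fold of -1, and the panel of regions lowest against the other lines leaves out the 10 already shown. The 10 lowest KMS-11 folds run from -3.04 to -2.18, and in the panel of regions highest against the other lines KMS-12 is the lowest line in all 8.

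Within this selected table, a strong fold in KMS-11 went with little more than the whole-table share of strong folds elsewhere. Of the 871 strong KMS-11 regions, KMS-12 was strong in 263, 30.2%, beside 29.9% of the whole table. RPMI8226 was strong in 168, 19.3%, beside 16.4% of the whole table. Neither other line was strong in 479 of the 871, beside 2215 regions, 57.7%, of the whole table. The whole table includes the 866 regions with KMS-11 above -0.5, where both other lines are at or below -0.5 by construction. These shares thus depend on the rule by which regions enter the table. Regions where all 3 lines had a fold at or below -0.5 numbered 952, with a KMS-11 median of -0.83 and 34.0% strong. The 1235 regions shared by KMS-11 and KMS-12 had a KMS-11 median of -0.79 with 23.9% strong. The 785 shared by KMS-11 and RPMI8226 had -0.81 with 32.1% strong. The 866 regions shared by KMS-12 and RPMI8226 alone had a KMS-11 median of -0.24.

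The regions strong in every line form a short list of 39, each at a different gene. AIMP2 and COMMD1 led it by KMS-11 fold in the authors' deposited table. GALK2, a kinase of N-acetylgalactosamine, followed with -2.08 in KMS-11, against -1.19 in KMS-12 and -1.04 in RPMI8226. SUCNR1, the receptor for succinate, had -1.91, against -1.32 in KMS-12 and -1.20 in RPMI8226. POU2F1 (chr1:167264170-167264449), the octamer-binding factor OCT1, had similar values throughout, at -1.60 in KMS-11, against -1.43 in KMS-12 and -1.58 in RPMI8226. STAT4, a signal transducer downstream of cytokine receptors, had -1.22, against -1.14 in KMS-12 and -1.27 in RPMI8226.

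Across regions the KMS-11 fold did not follow that of the other lines. Spearman's rho over all regions was -0.13 with KMS-12 and -0.11 with RPMI8226. Within the 952 regions shared by all 3 lines rho was 0.10 with KMS-12 and 0.08 with RPMI8226. The rule that 2 lines be at or below -0.5 ties the folds to each other, so the negative sign belongs to a selected table and these are descriptions of it.

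Most genes held a single region. The regions fell to 3221 genes by containment or nearness, 2749 of them with 1 region, and 472 with 2 or more. Strong regions lay at 821 genes, and 46 genes had 2 or more of them. Of the 472 genes with several regions, 23 had only strong ones and 261 had none. For comparison with the gene lists below, 8.40% of the genes in the gene table held a region, 10.3% of the protein-coding and 6.29% of the noncoding ones. In the lists a region named without a distance lies inside its gene or within 10 kb of it. A nearest gene is a label of position here, and no RNA was measured in these files.

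PTPRC, the CD45 phosphatase of blood cells, held 2 regions of nearly equal fold within the gene. In the authors' deposited table these had -1.498 and -1.493 in KMS-11, with PTPRC medians of -0.17 in KMS-12 and -1.09 in RPMI8226. ATP10B, a lipid flippase, was the 1 gene of 108 with 3 or more regions whose regions were all strong, at -1.34, -1.10 and -1.07. STOM, which encodes the membrane protein stomatin, had regions 5.19 kb apart at -1.28 and -1.48 in KMS-11. OVCH1 had regions 0.547 kb apart at -1.36 and -1.33. THSD7B and SNX9, a sorting nexin of endocytosis, each had 3 strong regions of 4, with medians of -1.17 and -1.12. The -1.10 of ATP10B, which a region of THSD7B and a region of SNX9 also carry, occurs in 109 regions. The -1.33 of OVCH1, also found at SNX9, occurs in 60.

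The genes with most regions varied within themselves. ITPR1, the inositol trisphosphate receptor that releases calcium from the endoplasmic reticulum, held 5 regions inside the gene, with KMS-11 folds of -1.61, -0.90, -0.96, -0.69 and -1.33 in the authors' deposited table. SEMA3C, a secreted semaphorin, had -1.44, -0.79, -0.95, -1.06 and -0.93. EMB, the adhesion protein embigin, had -0.57, -1.33, -1.66, -1.07 and -0.51, at 94.3 to 795 kb from the gene. DLG2, NLGN1 and SLC35F3, the other genes with 5 regions, had medians of -0.77, -0.76 and -0.69 and spans of more than 1 unit of log2 between their lowest and highest folds. ROR1, a receptor for Wnt ligands found on some B cell malignancies, had 4 regions with a median of -0.99. MECOM, a zinc finger factor of blood stem cells, had 4 regions with a KMS-11 median of -0.41, against -1.38 in KMS-12 and -0.84 in RPMI8226. ROR1 and MECOM, from the 25 genes with 4 regions, were named after their values were seen.

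Neighbouring regions resembled each other weakly. In 107 pairs of neighbours up to 10 kb apart the KMS-11 folds had a Spearman's rho of 0.16, against 0.05 in KMS-12 and 0.03 in RPMI8226. Their median absolute difference in KMS-11 was 0.226, against 0.368 for the 633 pairs 10 to 100 kb apart. Both neighbours were strong in 7 of the 107 close pairs, 6.54%, beside 5.53% of the pairs 10 to 100 kb apart and 5.63% of those over 1 Mb apart.

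The genes named in the title of the study were not among the strong regions. For FLI1, an ETS transcription factor, the closest region was 645 kb off, and its KMS-11 fold in the authors' deposited table was -0.53, beside KMS-12 at -0.85 and RPMI8226 at -0.33. For SMILO, the long noncoding RNA that RefSeq lists as LINC00582, the closest was 130 kb off, next to EGLN1, at -0.44 in KMS-11, beside KMS-12 at -1.28 and RPMI8226 at -0.91. A table of shared losses does not say whether accessibility at FLI1 or SMILO itself changed in KMS-11.

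Of 30 myeloma translocation and driver genes 5, 16.7%, held a region, beside 10.3% of protein-coding genes and 100 of the 523 genes of all 19 lists. Of the 5 regions 2 were strong. CCND3, a D-type cyclin (chr6:42045691-42045940), had -1.503 in KMS-11 in the authors' deposited table, against -0.37 in KMS-12 and -0.86 in RPMI8226. IRF4, the plasma cell transcription factor on which myeloma cells depend (chr6:399773-400323), had -1.28, against -0.36 in KMS-12 and -0.51 in RPMI8226. Both regions lie inside the gene, and both folds were lower in KMS-11 than in either other line. MAP3K14, the NF-kB-inducing kinase, had -0.79, against -1.53 in KMS-12 and -1.16 in RPMI8226. MYC had its closest region 58.4 kb away in PVT1, at -0.71, against -0.66 in KMS-12 and -0.47 in RPMI8226. MAF (chr16:79593196-79593433), translocated in KMS-11, had -0.57, against -0.91 in KMS-12 and -0.31 in RPMI8226. NSD2 and FGFR3 had none near: their nearest region, in PIGG, was 1316 and 1238 kb away with a KMS-11 fold of -0.63. The loci of NSD2 and FGFR3 were looked up after the values were seen.

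Plasma cell identity genes were mixed. Of 20 genes 7 held 9 regions, of which 2 were strong, and the median KMS-11 fold was -0.75. POU2F1 had 3 regions at -1.60, -0.95 and -0.93 in KMS-11 in the authors' deposited table. SLAMF7, the surface receptor that elotuzumab binds, had -0.75, against -0.44 in KMS-12 and -1.72 in RPMI8226. FCRL5, an Fc receptor-like protein of plasma cells, had -0.56, against -1.05 in KMS-12 and -0.55 in RPMI8226. POU2AF1, the coactivator of the octamer factors, was near 0 at -0.05, against -0.94 in KMS-12 and -0.85 in RPMI8226. POU2F1 and its coactivator gene thus lay at opposite ends of the KMS-11 folds on this list.

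Chromatin and DNA modifiers had the highest count of strong regions of the 19 lists, 5 of 11, 45.5%, at 7 of 40 genes. Their median KMS-11 fold was -0.92, against -0.25 in KMS-12 and -0.72 in RPMI8226. SMYD3, a lysine methyltransferase, had -1.52 in KMS-11 in the authors' deposited table, against -0.93 in KMS-12 and -0.37 in RPMI8226. HDAC4, a class II histone deacetylase, had -1.33 at a region 38.2 kb away, against -0.42 in KMS-12 and -0.52 in RPMI8226. ARID1B, a BAF remodeller subunit, had 4 regions at -1.10, -1.10, -0.64 and -0.51 in KMS-11. NSD1, a histone methyltransferase, had -1.07, against -0.15 in KMS-12 and -0.60 in RPMI8226. EZH2, the catalytic subunit of Polycomb complex PRC2, had -0.28, against -1.23 in KMS-12 and -0.52 in RPMI8226. Of the strong values named here, -1.10 occurs in 109 regions, -1.33 in 60, -1.52 in 23 and -1.07 in 9. All the strong regions of this list thus carry a value that other regions share, that of NSD1 being the least repeated. The regions of 1 gene also share a source. BET proteins and elongation factors held 2 regions, at 2 of 28 genes, 7.14%, beside 10.3% of protein-coding genes. These lay at ELL with -0.71 and 33.3 kb from MED13 with -0.55 in KMS-11.

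The 6 signalling lists held 0 to 3 strong regions each in KMS-11, with 22.7% of the table as background. IL6 and JAK-STAT genes had 2 strong regions of 7 and a median of -0.87. JAK1, the kinase of the gp130 receptors (chr1:64949123-64949420), had -1.43 in KMS-11 in the authors' deposited table, against -0.06 in KMS-12 and -1.65 in RPMI8226. PI3K, AKT and mTOR genes had 3 strong regions of 17 and a median of -0.71. Strong regions in the mTOR partner RPTOR and the AKT phosphatase PHLPP1 had the same value, -1.33. FGF receptor and MAPK genes had 1 strong region of 9 and a median of -0.63. That region, 48.9 kb from the feedback inhibitor SPRY1, had -1.53 in KMS-11, against -0.95 in KMS-12 and -0.84 in RPMI8226, and regions 8.38 and 14.6 kb from SPRY1 had -0.89 and -0.80. NF-kB genes had 0 of 4 strong, the lowest being TRAF6, an adaptor ligase, at -0.93. Notch genes had 0 of 9 strong, with the coactivators MAML3 and MAML2 at -0.88 and -0.86 for their lowest regions and the target HES1 at -0.53. Wnt and TGF-beta genes had 1 strong region of 14, at 11.9 kb from the ligand gene TGFB2 with -1.19.

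Cell cycle, stress and death genes gave a like picture. The cell cycle and p53 list had 2 strong of 6, CCND3 and MDM4. MDM4, an inhibitor of p53, had -1.20 in KMS-11 in the authors' deposited table, against -0.06 in KMS-12 and -1.02 in RPMI8226. CDKN1A, the p21 inhibitor of cyclin-dependent kinases, had -0.15 in KMS-11, against -0.71 in KMS-12 and -0.67 in RPMI8226. The unfolded protein response, on which secretory plasma cells rely, had 1 strong of 7, at TRIB3 with -1.17, and its sensor kinase ERN1 had -0.92. Apoptosis genes had 0 of 6 strong, with TNFSF10, the TRAIL ligand, at -0.88 and BCL2 at -0.52. ETS and AP-1 factors had 1 strong of 6, at 48.2 kb from FOS with -1.37, while ELF1 had -0.63 and ETV1 -0.01.

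Adhesion and homing genes had 3 strong regions of 16 and a median of -0.74. NCAM2, a neural adhesion molecule, had -1.44 in KMS-11 in the authors' deposited table, against -0.93 in KMS-12 and -1.32 in RPMI8226. CXCR4, the receptor that holds plasma cells in bone marrow, had its closest region 120 kb away at -1.23. CXCR5, a homing receptor of follicular B cells, had 4 regions from -1.01 to -0.05, the outermost 44.4 kb from the gene.

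The lists chosen for other blood and stromal cells held 0 strong regions. Blood cell genes outside these lists did have some, such as PTPRC at -1.498 and -1.493, GPR171 at -1.47 and FCRL4 at -1.41 in KMS-11. The B cell program had 4 regions, at 4 of 24 genes, with the kinases BLK and BTK at -0.94 and -0.88 in KMS-11 in the authors' deposited table. CIITA, the class II transactivator, had -0.22, and a region 58.5 kb from the B cell factor gene EBF1 had -0.04. T and NK cell markers had 3 regions at 2 of 18 genes, with ZAP70 at -0.79. Myeloid markers had 1 region, at CSF1R with -0.79, and stromal and endothelial markers had 1, at 20.1 kb from PECAM1 with -0.63. Over all 19 lists, 100 of 523 genes held 131 regions, of which 21, 16.0%, were strong, beside 22.7% of the table, and the median was -0.71, equal to that of the table at this precision.

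**Figure D3:**
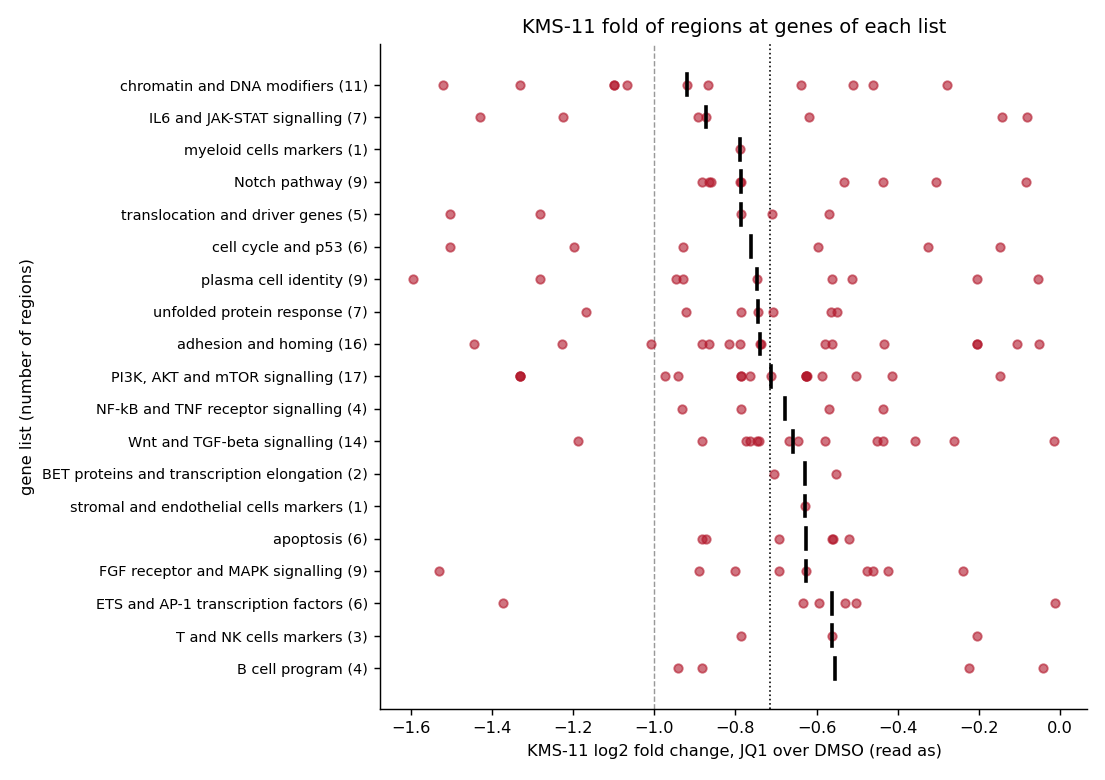
KMS-11 log2 fold change (horizontal axis) of every region at the genes of 19 lists, 1 row for each list with its number of regions; points are regions, bars are list medians, the dotted line is the median of all regions and the dashed line a fold of -1. List medians run from -0.92 for chromatin and DNA modifiers to -0.55 for the B cell program, and 5 of 11 regions of the chromatin list lie at or below -1.

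Regions over promoters had KMS-11 folds nearer to 0 than the rest, a difference described over regions with no replicate error. A promoter window is taken as 250 bases before to 50 after an annotated start, and 106 regions overlapped at least 1 of them. Their median KMS-11 fold was -0.63, against -0.72 in the other 3732 regions, and 12.3% were strong, against 23.0% of the other regions. The other regions include the 170 of chromosome 8, which could not be classed because the windows used here hold none there. In KMS-12 the promoter regions had -0.86, against -0.79 in the other regions, and in RPMI8226 they had -0.56, against -0.61. Promoter regions were wider, with a median of 536.5 bp against 393 bp over the whole table. Among regions over 500 bp the KMS-11 medians were -0.61 at promoters and -0.70 elsewhere, and 5.26% against 19.7% were strong. Among regions shared by all 3 lines, 22 of them at promoters, the medians were -0.84 and -0.83, and 31.8% against 34.1% were strong, so the difference was not seen there.

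The windows of promoters with strong KMS-11 folds had a lower median GC content than those of the other promoter regions. The 13 strong promoter regions had windows of 31% to 52% GC with a median of 42%, and 0 of them exceeded 55% GC. This is the GC of the whole window, with no minimum overlap required. In the strong group as few as 21 window bases lay inside the region, at LOC105371965. The 56 promoter regions between -1 and -0.5 had a median of 56.2% GC, and the 37 above -0.5 had 59.3%. Those over 55% GC numbered 29 and 20 in these groups. The median of all 35116 windows was 58.7%. Over the 106 promoter regions Spearman's rho of fold with GC was 0.28 in KMS-11, against 0.01 in KMS-12 and 0.23 in RPMI8226, and rho of fold with region width in KMS-11 was 0.21. The median width was 296 bp in the strong promoter regions and 674 bp in those above -0.5, and 46.2% and 16.2% of them carried a fold value found in 10 or more regions. In the 57 promoter regions over 500 bp rho of fold with GC was 0.305 in KMS-11, against 0.0981 in KMS-12 and 0.00805 in RPMI8226. In the 80 whose KMS-11 value is found in fewer than 10 regions it was 0.250 in KMS-11, against 0.0507 in KMS-12 and 0.159 in RPMI8226. The KMS-11 rho was thus of like size in these subsets, while that of RPMI8226 was near 0 in the wide regions. The GC comparison, its 55% line and the subsets were chosen after the values were seen.

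After the region over LOC124904677, the lowest in the authors' deposited table were TRD-AS1 (-1.73 in KMS-11, against -0.91 in KMS-12 and -0.52 in RPMI8226) and NALF1-IT1 (-1.68, against -1.48 and -1.18 in the same order). LOC124900834 and LOC105372960 followed with -1.60 and -1.52. GPR171 had -1.47 in KMS-11, against -0.89 in KMS-12 and -0.92 in RPMI8226. FCRL4, an Fc receptor-like gene of memory B cells that is the seventh lowest and was named after its values were seen, had -1.41, against -0.37 in KMS-12 and -1.65 in RPMI8226. Among the highest, GSC had -0.12 in KMS-11, against -1.53 in KMS-12 and -0.53 in RPMI8226. VAT1L had -0.02, against -1.74 in KMS-12 and -0.51 in RPMI8226. ESR1, the oestrogen receptor, had -0.09, against -0.89 in KMS-12 and -0.66 in RPMI8226. PAX6, a homeobox factor of eye and brain, had -0.20, against -1.19 in KMS-12 and -0.71 in RPMI8226.

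Motif letters were searched on both strands of the promoter windows. The octamer ATGCAAAT was in 4 of the 130 windows at regions, 3.08%, beside 1.77% of all windows. The E-box CACGTG, which MYC and its partner MAX bind, was in 5, 3.85%, beside 7.26% of all windows. The ETS letters CCGGAAGT were in 3, 2.31%, beside 4.14%, and TATAAA was in 20, 15.4%, beside 11.5%. No motif contains another, and these shares are counts of letters that say nothing of binding.

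**Figure D4:**
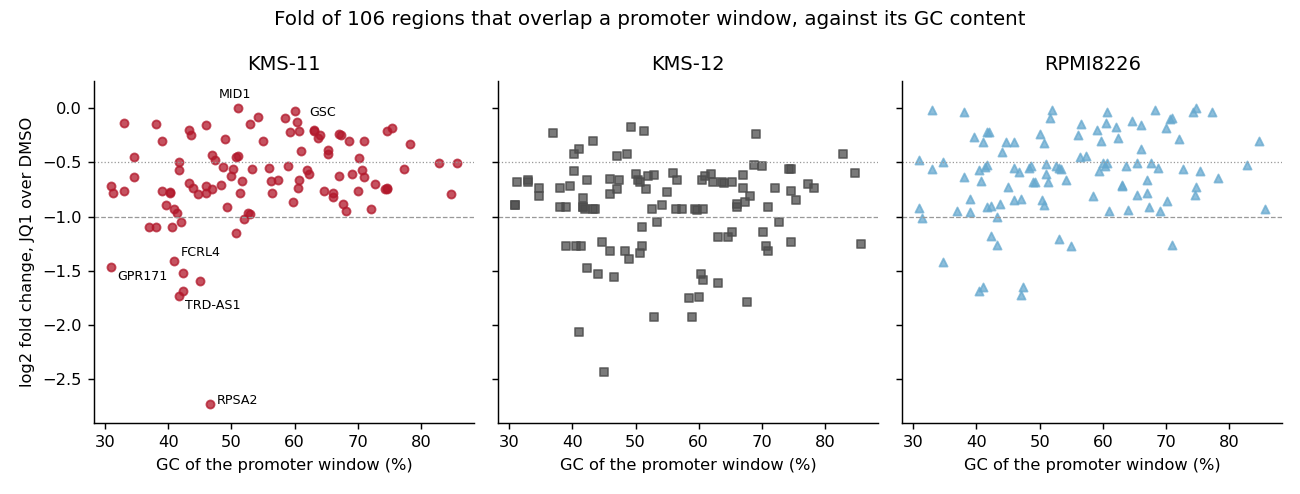
Log2 fold change (vertical axis) of the 106 regions that overlap a promoter window against the GC percentage of that window, averaged where there are several (horizontal axis), in KMS-11, KMS-12 and RPMI8226; points are regions, the dashed line is -1 and the dotted line -0.5. In KMS-11 the 13 regions at or below -1 all lie at 52% GC or less, and rho is 0.28 in KMS-11, against 0.01 in KMS-12 and 0.23 in RPMI8226.

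The fold varied little with position along the genome. Regions inside protein-coding genes, 1828 in all, had a KMS-11 median of -0.71, the 515 inside noncoding genes only had -0.71, and the 1495 outside genes had -0.73. By distance to the nearest annotated start, the medians ran from -0.64 within 1 kb (153 regions, 14.4% strong) to -0.69 at 1 to 10 kb, -0.72 at 10 to 100 kb and -0.77 beyond 100 kb (633 regions, 23.9% strong). The 170 regions of chromosome 8 were not placed by start, since the start table used here holds none there.

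Chromosome medians lay within 0.197 of each other, a span set beside a quartile range of -0.96 to -0.53 over all regions. Chromosome 22 had the lowest KMS-11 median, -0.81 over 35 regions (95% order-statistic interval -1.03 to -0.64), with 34.3% strong. Chromosome 5 followed at -0.79 over 209 regions with 27.3% strong, then chromosomes 10, 6 and 4. Chromosome 16 had the highest median, -0.62 over 129 regions (interval -0.69 to -0.57), with 17.8% strong and 32.6% above -0.5. Its median in KMS-12 was -0.89 and in RPMI8226 -0.59. Chromosome 19 had the smallest strong share, 5 of 70 regions, 7.14% (Wilson interval 3.09% to 15.7%), although it holds the RPSA2 region at -2.73, and its median was -0.66. Of the 23 chromosomes with at least 20 regions, 22 had an interval that held the median of all regions, chromosome 16 being the exception, and in 21 the interval of the strong share held 22.7%. These intervals cover the spread over regions and carry no replicate error. Copy number of KMS-11 chromosomes was not given in the sources used here and its part was not tested.

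**Figure D5:**
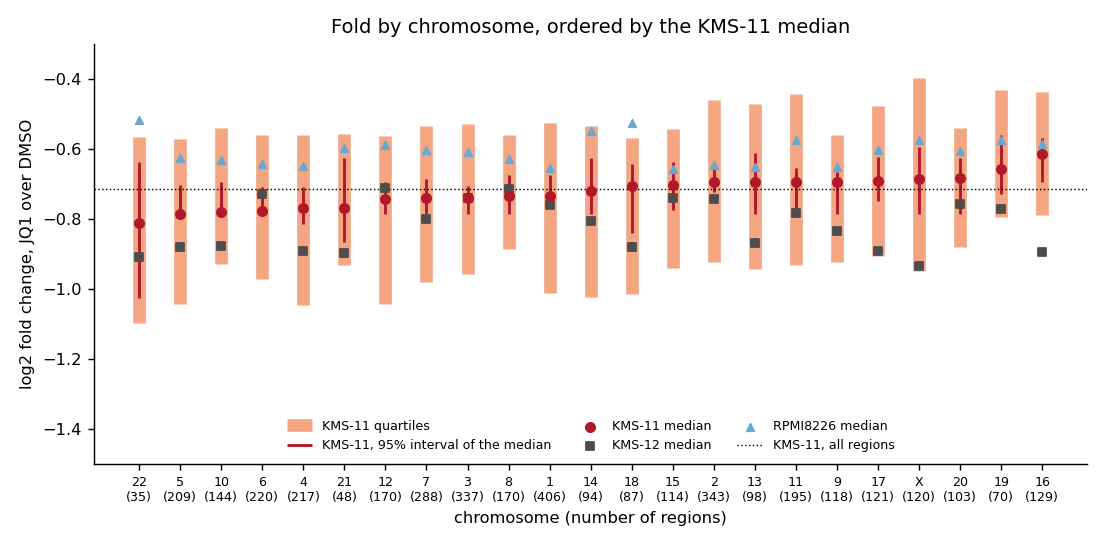
KMS-11 log2 fold change by chromosome (horizontal axis, with the number of regions, ordered by KMS-11 median): wide bars are quartiles, circles medians and thin lines their 95% intervals; squares and triangles are KMS-12 and RPMI8226 medians and the dotted line is the KMS-11 median of all regions. The medians run from -0.81 on chromosome 22 to -0.62 on chromosome 16, whose interval lies above the line.

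Narrow regions had lower folds and carried repeated values. The 635 regions of 250 bp or less had a KMS-11 median of -0.79 with 24.6% strong, and the 122 over 1000 bp had -0.64 with 11.5% strong. Without folds found in 10 or more regions, the median of the narrow regions was -0.67, above the -0.71 of all regions left in that setting. The KMS-11 column holds 1278 distinct values, and 1584 regions, 41.3%, carry a value found in 10 or more regions, against 52.3% in KMS-12 and 7.58% in RPMI8226. The commonest, -0.79, stands in 178 regions whose median width is 274.5 bp. Repeated values made up 73.1% of the regions of 250 bp or less and 0.820% of those over 1000 bp. Among the regions whose value occurs once, 781 in all, 28.8% were strong. The share was 23.6% where the value occurs in 2 to 9 regions and 18.8% where it occurs in 10 or more. Read counts behind the repeated values are not in the table, and their part in the folds of narrow regions was not tested.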

How the data were processed

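ATAC-seq libraries of KMS-11, KMS-12 and RPMI8226, 1 with JQ1 and 1 with DMSO for each line, were grouped by the cell line and treatment in the labels. The authors deposited 1 table with a log2 fold change per region and line, and, as another column, the number of lines in common, checked here to equal the lines at or below -0.5. Header and labels state neither base nor direction: base 2 was taken because DESeq2 is named per the submitters' processing notes. These also name MACS2, hg38 and GRCh38.p13, without roles. For aligner, peak settings and scaling nothing is given in the sources used here.

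With 1 library a side, folds were ranked, counted and summarised with no test. Intervals are 95% Wilson intervals for shares and order-statistic intervals for medians, both over regions. Regions were assigned to the containing or else nearest of 20037 protein-coding and 18303 noncoding RefSeq genes (GRCh38.p14, for names and distances), and overlapped by coordinate with 35116 RefSeq promoter windows, which hold none on chromosome 8. Named were the 10 lowest KMS-11 folds, the 6 nearest to 0, 8 regions lowest and 8 highest against the mean of the other lines. The 8 lowest were strong regions at genes outside the 10 lowest, with a KMS-11 value found in fewer than 10 regions. No such limit was set for the 8 highest. Also named were the 6 genes with 5 regions, the lowest regions of 19 gene lists and the 6 lowest promoters. The regions nearest to FLI1, MYC and SMILO were named too. Other names were chosen after their values were seen. Some genes of the lists are not reported here. The comparison, the lists and the rules were chosen with earlier results of these data known. Alternatives took distinct folds only, regions shared by 3 lines only, 1 region per gene, another threshold, and centred or ranked lines. Python 3.11.15 with pandas 2.3.3, scipy 1.17.1 and matplotlib 3.10.9 was used. The gene assignment code was tested on made-up regions. The ranking against the mean of the other lines was tried as a formula on simulated folds.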

Additional observations from a re-analysis of the deposited data

How the results depend on the processing

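Of 38 alternative values 22 kept their size, 14 moved and 2 reversed, and the cause was not tested except where the alternative itself selects lower folds, as sharing by 3 lines and the lowest region of each gene do. In the 952 regions shared by 3 lines the KMS-11 median was -0.83, the strong share 34.03%, the chromosome 5, 19 and 16 medians -0.98, -0.82 and -0.76, and the promoter median -0.84, this last setting being chosen after seeing the data. There rho with KMS-12 reversed to 0.0978 and rho with RPMI8226 to 0.0783. Taking 1 region per gene gave a median of -0.75. A threshold of -1.5 left 4.72% of regions. With folds found in fewer than 10 regions, the strong share was 25.4%, KMS-11 was lowest of the 3 lines in 33.9%, chromosomes 5 and 16 had medians of -0.81 and -0.55, rho with RPMI8226 was -0.0731, and regions of 250 bp or less had a median of -0.67, so their lower folds did not hold there. Centring the lines, or ranking within them, left KMS-11 the lowest line in 32.3% and 32.7% of regions. No paired analysis was possible because each group has 1 library, and no library could be left out for the same reason. Depth is unknown, so no counting error can be given for a fold.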
